A study of Saccharomyces cerevisiae with 67 samples.

Results

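Most mitochondrial ribosomal proteins are made from nuclear genes and carried into the mitochondrion, where they join RNAs encoded by mitochondrial DNA to form the mitoribosome. This ribosome translates the few proteins that mitochondrial DNA still encodes, most of them subunits of the respiratory chain and of the ATP synthase, so a yeast cell that respires depends on it. Acetylation of histone H4 at lysine 12 (H4K12ac) is a chromatin mark found at the promoters of active genes. The genes described here were chosen by name: nuclear protein-coding genes of the sacCer3 genome whose symbol is MRPL, MRPS, MRP or RSM followed by a number only. The rule found 67 of 6002 nuclear protein-coding genes, on 14 of the 16 chromosomes, and used no measured value. By their annotated products, 38 belong to the large subunit (54S) and 27 to the small subunit (37S) of the mitoribosome. The products of the other 2 are not annotated as ribosomal proteins: RSM22 is given as a tRNA methyltransferase, and MRP8 only as Mrp8p. Of the 65 ribosomal members, 41 have a counterpart in bacterial ribosomes and 24 are found only in mitoribosomes.

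The mark was mapped by ChIP-seq in BY4741 yeast, either WT or lacking MIP6 (mip6Δ), a gene for an RNA-binding protein. Each culture was divided into a flask left at 30 °C and flasks heated to 39 °C, sampled 20 and 120 min later. The H4K12ac libraries of WT cells were 3 at 30 °C, 1 at 20 min of heat and 4 at 120 min, and those of mip6Δ cells were 4, 3 and 4. These 19 libraries are the ones described here, and whether others entered the merged list is not known. The deposited result is 1 list of 1970 regions, merged over the H4K12ac samples, with positions and no height, score or sample. Every value below is therefore a position or a share of genes, and it has no replicates and no test. Strains, temperatures and times cannot be set against each other within the list. The regions were 504 to 25822 bp long, with a median of 2835 bp, and covered 61.8% of the nuclear genome. Since they cover so much of it, each count is given beside the same count over all genes and over genes of similar length, meaning all other genes within 10% of a member's length.

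Messenger RNAs of mitochondrial ribosomal proteins in yeast are known targets of Puf3, an RNA-binding protein that recognises a short motif after the stop codon. This feature is shown first because it joins the members by sequence, independently of the symbols and of the regions. The motif TGTANATA was searched on the coding strand in the 250 bases after each stop codon. The 10 sites printed here are the first ones after the stop codon of the members that the results below turn on. Capitals mark the motif, whose position is given, and 11 bases are shown on each side, 5′ to 3′, from the RefSeq R64 genome, the same assembly as sacCer3.
RSM23 (chrVII:267637-267644, minus strand): cccatttctcaTGTACATAtaaatagataa
RSM28 (chrIV:1438047-1438054, plus strand): tcttacataccTGTAAATAtctagtacgta
MRP51 (chrXVI:327708-327715, plus strand): attcagagttcTGTAAATAaataaagaaaa
MRP4 (chrVIII:100440-100447, plus strand): taacctaaactTGTACATAtgcccatatat
MRP1 (chrIV:1170194-1170201, plus strand): ttggtagtctcTGTAAATAtataaagtcaa
MRPL9 (chrVII:936034-936041, minus strand): tactacaatcaTGTACATAcatcaataata
MRPL40 (chrXVI:224144-224151, plus strand): tatattcgaccTGTATATAtgaaagcataa
MRPS12 (chrXIV:694280-694287, minus strand): atacaacctttTGTAAATAgcaatgaccat
RSM19 (chrXIV:695035-695042, minus strand): gagggatctagTGTATATAgatttctagat
MRPL32 (chrIII:119217-119224, plus strand): aaacttaagccTGTATATAgaaacttaatt
The first 7 are the members whose site lies outside the H4K12ac regions, MRPS12 and RSM19 are neighbours that share a region, and MRPL32 lies in the longest region of the list.

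The motif was present after 65 of the 67 members (97.0%) and after 910 of all 6002 genes (15.2%). All 38 large-subunit members and all 27 small-subunit members had it, and RSM22 and MRP8, the pair without a ribosomal annotation, did not. The same letters were read on the opposite strand after 14 members (20.9%) and 14.5% of all genes, and reversed (ATANATGT) after 6 members (8.96%) and 10.7% of all genes. The excess over all genes was thus seen for the motif in its own orientation and was small or absent for these controls, which were chosen after the data were seen. First sites began a median of 51 bases after the stop codon, between 8 in MRPS5 and 139 in MRPS9, and all 65 lay before the next annotated gene. Among all genes with a site, the median distance was 63 bases, and 897 of the 910 first sites lay before the next gene.

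Sites of the members also shared bases outside the letters of the rule. A C stood 2 bases before the motif in 46 of 65 members (70.8%), as in RSM23 and MRPL32 above, against 27.9% of the first sites of all genes. In MRP1, MRP51 and MRPS12 that base was T, and in RSM19 it was A. The free position of the motif was A in 32 members, T in 20, C in 12 and G only in MRPL3. Over all genes T was the most frequent base there, in 446 of 910 first sites, with A in 256. More than 1 site was found after 14 of the 65 members, against 84 of the 910 genes with a site. MRPL19 and RSM19 had 3 each.

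**Figure D1:**
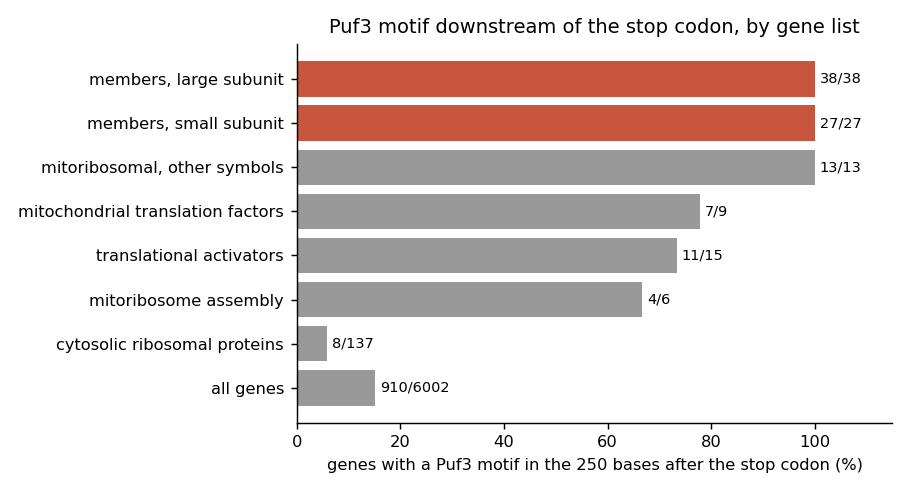
Share of genes with a Puf3 motif in the 250 bases after the stop codon, in percent, by gene list, with the number of genes beside each bar. All 38 large-subunit and 27 small-subunit members have the motif, as do all 13 mitoribosomal genes of other symbols, against 8 of 137 cytosolic ribosomal protein genes and 910 of all 6002 genes.

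Other genes of mitochondrial translation were counted for comparison. All 13 mitoribosomal protein genes with symbols of another kind had the motif, among them NAM9, IMG1 and PET123. It was found after 7 of 9 translation factor genes, 11 of 15 translational activator genes and 4 of 6 genes for assembly of the mitoribosome. Of the 137 genes for proteins of the cytosolic ribosome, 8 had it (5.84%). Each list of mitochondrial translation was thus above the share of all genes, and the cytosolic ribosomal protein genes were below it.

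H4K12ac regions covered the starts of all members. The start of a gene was taken as the first base of its coding sequence, and a region was counted there when it shared at least 1 bp with the window of 100 bp on each side. This was so in 67 of 67 members, where the share over all genes was 90.5%. In all 67 the whole window lay inside a region, against 89.2% of all genes. Among genes of similar length, 91.6% had a region in the window. With 67 genes and a background above 90%, the count had little room to differ.

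Genes without a region at their start are in part genes of a kind that holds no member. Of the 571 such genes, 319 lay within 30 kb of a chromosome end or had a 50-base word in the window that occurs elsewhere in the genome. No member was of either kind, and the member nearest to a chromosome end, at 44.5 kb, was MRPL27. Among genes of similar length, 9.07% were of one kind or the other.

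Regions also ran over the whole gene in most members. In 62 of 67 members (92.5%) every base from start to stop lay inside a region, and the share over all genes was 55.0%. The members are short, with a median length of 699 bp against 1200 bp for all genes, and short genes were more often wholly covered. Among genes of similar length, 83.9% were wholly covered, 8.64 percentage points fewer than among the members. Against genes of similar length away from chromosome ends and with a unique start window, the difference was 4.75 points. When only genes with a region at their own start were compared, the share at similar length was 91.5% and the difference was 0.99 points. Within that frame the coverage of the members was close to that of other genes of their length. The median covered share was 100% in the members and in all genes, so it did not tell them apart, and the mean was 98.6% in the members, 89.7% at similar length and 72.7% over all genes.

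**Figure D2:**
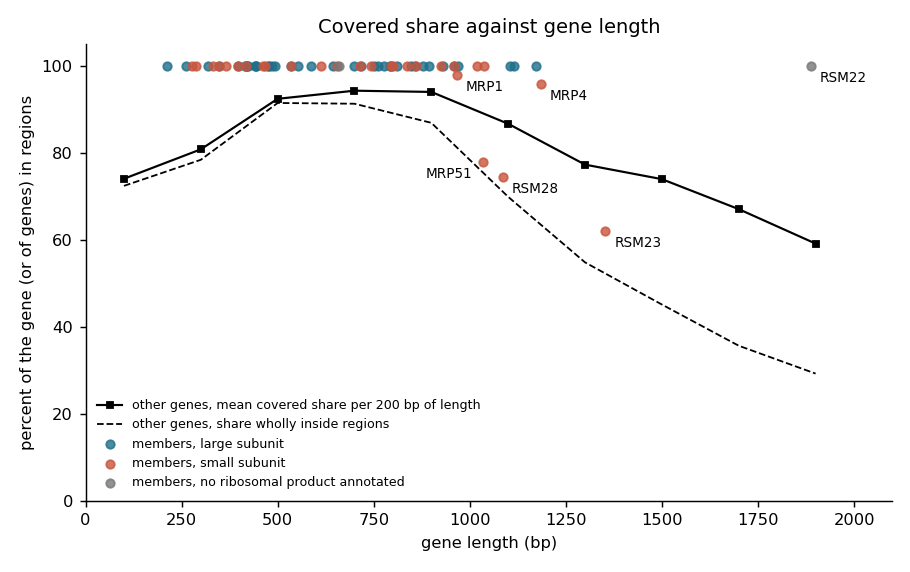
Covered share of each member (points, percent of the gene in regions) against gene length in bp, with the mean covered share (solid line) and the share wholly inside regions (dashed line) of other genes in steps of 200 bp. Members below 966 bp are all at 100%, and the 5 points below 100% are small-subunit genes.

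The 5 members that were not wholly covered were all genes of the small subunit and all at least 966 bp long. The 38 large-subunit members were covered from end to end, against 86.4% at similar length. Of the 27 small-subunit members 22 were (81.5%), against 82.1% at similar length. The subunits differed in length, with medians of 616.5 bp for the large and 744 bp for the small. At 950 bp or more 5 of 5 large-subunit members and 3 of 8 small-subunit members were wholly covered. Of the 3739 other genes in this class, which run up to 14733 bp, 35.8% were. The large- and small-subunit members in it were only 960 to 1353 bp long. Among genes of similar length to each, 65.7 to 82.7% were wholly covered for the large-subunit members. For the small-subunit members this share was 52.2 to 82.7%. The subunits differed in their neighbours too. Another gene started further along in the region in 3 of the 5 large-subunit and 3 of the 8 small-subunit members. The part of this in the difference was not tested. Members with bacterial counterparts were wholly covered in 39 of 41 cases (95.1%, against 86.1% at similar length), and those found only in mitoribosomes in 21 of 24 (87.5%, against 82.1%).

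RSM23 had the lowest covered share, 62.0% of its 1353 bp. It encodes mS29, the counterpart of human DAP3, a GTP-binding protein of the small subunit, and lies on chromosome VII from 267723 to 269075 on the minus strand (sacCer3). Its region ended 838 bp downstream of the start and left the last 514 bp bare. That region, 10808 bp long, held 7 gene starts, among them that of RPS2, a protein of the cytosolic ribosome. All of the other 6 lay on the upstream side of RSM23.

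RSM28, which encodes mS46, followed with 74.5% of 1086 bp (chromosome IV, 1436930 to 1438015, plus strand). The region ended 808 bp downstream of its start, and 277 bp were bare. MRP51 was covered over 77.9% of 1035 bp (chromosome XVI, 326628 to 327662, plus strand) and had 229 bare bases. It encodes bS1m, which in yeast is linked to translation of the mitochondrial COX2 and COX3 messages, and its region ended 805 bp downstream of the start. In these 3 genes no region came within 100 bp of the gene end.

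The other 2 genes missed full coverage by little. MRP4, the gene for uS2m, was covered over 95.9% of 1185 bp, with 49 bp bare at its end (chromosome VIII, 99219 to 100403, plus strand). MRP1, the gene for mS43, a protein with the fold of a superoxide dismutase, was covered over 97.8% of 966 bp, with 21 bp bare (chromosome IV, 1169178 to 1170143, plus strand). In all 5 genes the bare bases were at the end of the gene, and the next gene downstream was convergent, so that its end and not its start faced the bare stretch. The Puf3 sites of these 5 genes, printed above, began 32 to 79 bases after the stop codon and so lay outside the regions.

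**Figure D3:**
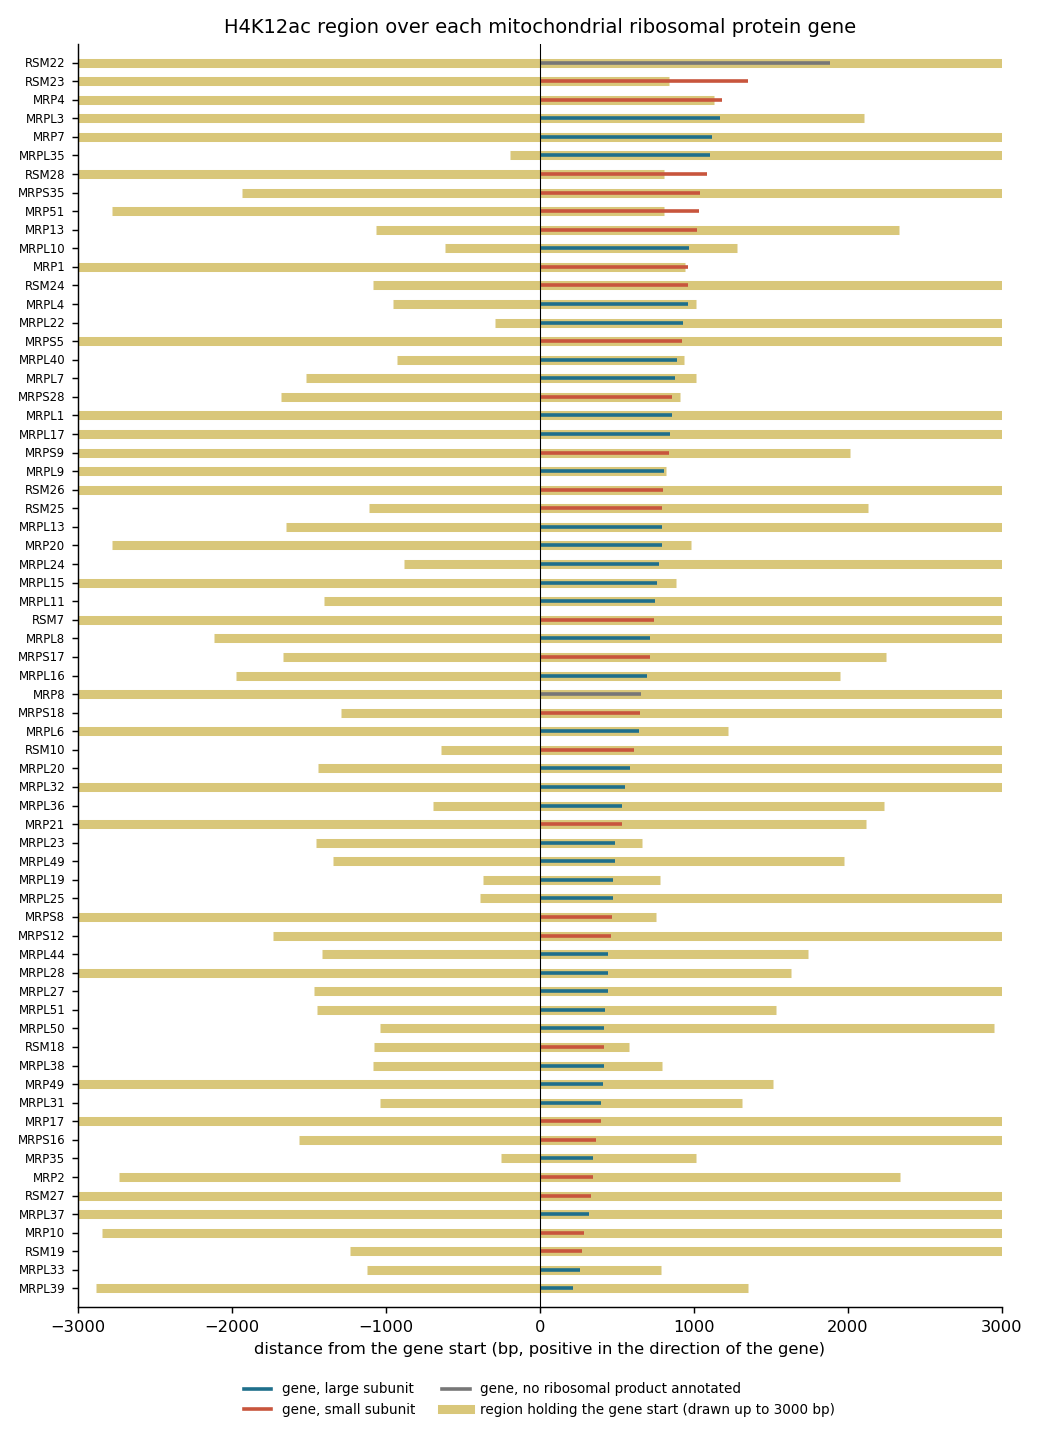
Each row is a member, sorted by length, with its gene (thin bar, coloured by subunit) and the H4K12ac region that holds its start (broad bar, drawn up to 3000 bp from the start) against distance from the gene start in bp. The region passes the end of 62 genes and stops short of it in RSM23, RSM28, MRP51, MRP4 and MRP1.

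How far a region ran into a member could be read best where no other gene started further along in the same region, apart from starts within 100 bp of the member's own. This was so for 22 members. Their regions ended between 582 bp downstream of the start in RSM18, the gene for bS18m, and 1353 bp in MRPL39, the gene for bL33m, with 898 bp as the median and 797.5 and 1013.5 bp as the quartiles. Over all 2660 genes in this situation the median was 839 bp and the quartiles were 695.75 and 1012 bp. Their median length was 1767 bp, against 801 bp for the 22 members. For other genes in this situation and of similar length, the median over the 22 members of the median reach was 897.25 bp.

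The reach of the regions downstream was thus similar in short members and in the longer genes of the whole list, and whether a member was wholly covered went with its length. The 15 members of this kind below 950 bp had a median reach of 883 bp and were all wholly covered. Other genes of this kind below 950 bp had a median reach of 874 bp, and 392 of 459 were wholly covered. The 7 longer members had a median reach of 944 bp, and 2 of them, MRPL4 and MRPL10, were wholly covered. For other genes of 950 to 1400 bp the median reach was 937.5 bp, and 119 of 436 were wholly covered. The 5 partly covered members were exactly those among the 22 whose length exceeded this reach, as follows from the definition, and their reach, 805 to 1135 bp, lay within the range of the other 17.

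**Figure D4:**
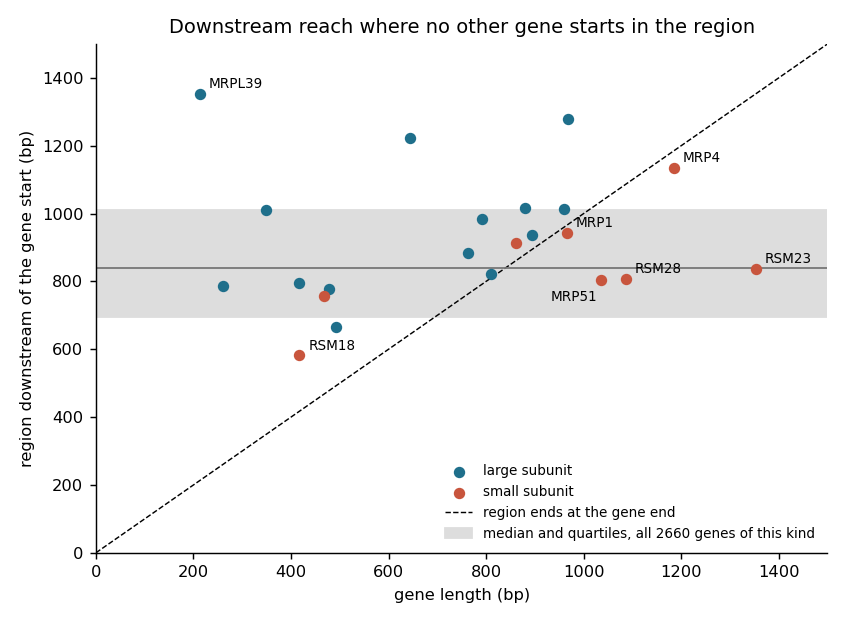
Distance in bp from the gene start to the downstream end of its region against gene length in bp, for the 22 members without another gene start in that stretch, with the median and quartiles of all 2660 genes of this kind (grey). The 5 points under the dashed line are the partly covered members, and the reach of the 22 stays between 582 and 1353 bp at every length.

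Among the remaining 45 members another gene started further along in the same region, and all 45 were wholly covered. The same was true of 99.9% of other genes in that situation, since such a region nearly always runs over the whole gene to reach the next start. The arrangement of neighbours gave the same picture. All 27 members followed by a gene in the same orientation were wholly covered, against 89.3% of such genes of similar length. Of the 40 members facing a convergent neighbour 35 were (87.5%), against 79.3%.

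At the gene end, regions came within 100 bp in 64 of 67 members (95.5%), beside 72.1% of all genes and 88.9% at similar length. Only RSM23, RSM28 and MRP51 lacked one. When only genes with a region at their own start were compared, the share at similar length was 95.05%. Within that frame the share of the members at the gene end was close to that of other genes of their length. Several members were covered to the stop codon by a small margin: the region passed the end of MRPL9, the gene for uL3m, by 12 bp, that of MRPL40, the gene for uL24m, by 43 bp, that of MRPS28 by 53 bp and that of MRPL4 by 55 bp. The Puf3 sites of MRPL9 and MRPL40 lay beyond the region. In all, 58 of the 65 first sites were inside regions (89.2%), against 71.3% of the first sites of all genes. This share was not counted at similar length. At 50 bp past the gene end, whether or not a site was there, 89.6% of members were inside a region. The shares there were 84.8% at similar length and 67.8% over all genes. From 180 to 1000 bp past the end the members were below similar length at each step, with 79.1% against 81.3% at 200 bp.

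**Figure D5:**
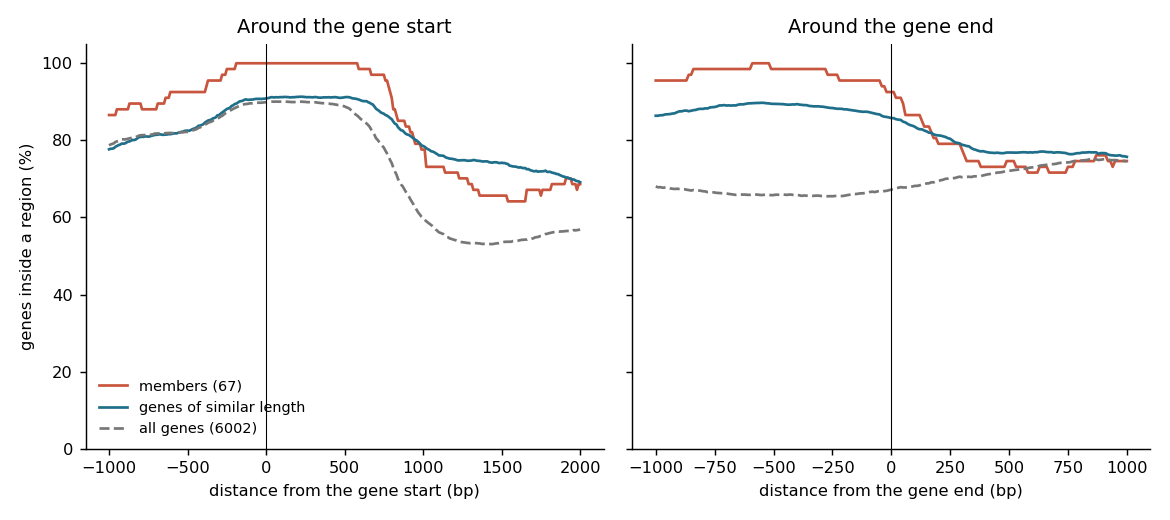
Share of genes, in percent, that lay inside a region at each 10-bp step from the gene start (left) and the gene end (right), for the 67 members, genes of similar length and all 6002 genes. All members are inside a region at the start and up to 500 bp downstream, and the members are below the genes of similar length at each step from 950 to 1920 bp downstream.

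Followed along the gene, all 67 members were inside a region at the start and at 250 and 500 bp downstream, where 90.9, 91.2 and 91.2% of genes of similar length were. At 750 bp 65 members were (97.0% against 86.9%), and at 1000 bp 52 were (77.6% against 78.5%). The order had turned at 950 bp, past the end of most members, and stayed so at each step up to 1920 bp: at 1500 bp 65.7% of members and 74.2% of genes of similar length were inside a region. Upstream, 62 members were inside a region at 500 bp (92.5% against 82.5%) and 58 at 1000 bp (86.6% against 77.7%). At every step the genes of similar length include those without a region at the start, where the shares were already 100% and 90.9%. The profile was not drawn for genes with a region at the start only.

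Members shared their regions with neighbours of many kinds, and in 1 case with each other. The 67 starts lay in 66 regions. The same count was not made for other sets of 67 genes, so it is not read as a trait of the members. The single pair was MRPS12 and RSM19 on chromosome XIV, the genes for uS12m, at the decoding site of the small subunit, and for uS19m. They lie in tandem on the minus strand, 229 bp apart, with RSM19 first (695052 to 695327) and MRPS12 after it (694361 to 694822). Their region was 7214 bp long and held 6 gene starts, those of SOL1, EGO4, ARC35 and DBP6 besides. Both genes carry a Puf3 site, 10 bases after the stop codon of RSM19 and 74 after that of MRPS12. No pair of members was divergent.

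The regions of the members were much like those of other genes in median size. Their median length was 4995 bp, against 4818.5 bp over all genes with a region at the start, and both held a median of 4 gene starts. The upper quartile was higher, 8974 bp against 7784 bp, and 16 members (23.9%) lay in the longest 5% of regions, against 14.3% of all genes. The mean was 6710 bp, against 6612 bp at similar length. The longest was that of MRPL32, the gene for bL32m, which a mitochondrial protease matures after import. At 25822 bp and 19 gene starts it was the longest of the whole list, and it ran 15816 bp upstream and 9454 bp past the end of the gene, over CDC10, a septin gene, and CIT2, a citrate synthase gene, among others. The shortest was that of MRPL19, the gene for uL11m, at 1150 bp. In 3 members, MRP35, MRPL10 and MRPL38, the region held no other gene start, and these were 1264, 1897 and 1877 bp long.

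Upstream of the start, the regions ran between 194 bp in MRPL35, the gene for mL38, and 15816 bp in MRPL32. The median was 1734 bp, against 2216 bp over all genes. The mean had the opposite order, with 3508 bp in the members and 3198 bp at similar length. Where no other gene started on the upstream side, as in 9 members, the distance was 194 to 1081 bp with a median of 616 bp, against 473 bp in 1161 genes of this kind. Past the gene end, the regions ran a median of 1536 bp on, against 940.5 bp over all genes. The mean was 2506 bp in the members and 2719 bp at similar length, so the order turned with the comparison. Members had short distances to their neighbours, with a median of 322 bp to the nearest gene upstream that does not overlap them (454 bp over all genes) and 284 bp downstream (309 bp).

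RSM22 differed from most genes of its length. At 1887 bp it is the longest member, and it was wholly covered, where the median of the 594 genes of similar length was 54.4% and only 29.8% of them were wholly covered. Its region was 17707 bp long, with 10 gene starts, those of RPS27A, GPM1 and SDH1 among them, and RPS27A lies convergent on its downstream side. MRP8 (660 bp) was wholly covered in a region of 6015 bp that also held the start of SDH3, a subunit of succinate dehydrogenase. In the other 66 members the median of genes of similar length was 100%, which none could exceed. RSM23, RSM28 and MRP51 were furthest below it, with differences of -37.99, -25.5 and -22.1 points.

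The other lists of mitochondrial translation all had regions at their starts. Of the 13 mitoribosomal genes of other symbols, with a median of 585 bp, 11 were wholly covered, against 78.1% at similar length. The exceptions were NAM9 (1461 bp, 57.1%) and EHD3 (1503 bp, 58.7%), both of the small subunit. Translation factor genes, with a median of 1314 bp, were wholly covered in 5 of 9 cases, against 44.8% at similar length. Among them TUF1, the elongation factor Tu of the mitochondrion, was covered in full, and MEF2 over 30.9% of 2460 bp. The activators help single mitochondrial messages to be translated and had a median of 1470 bp. Of these, 6 of 15 were wholly covered, against 51.9% at similar length, with PET111 lowest at 20.0% of 2403 bp. Of the assembly genes, with a median of 1398 bp, 4 of 6 were, against 54.9%. Cytosolic ribosomal protein genes, with a median of 771 bp, were wholly covered in 126 of 137 cases (92.0%), close to the share of the members. The share at their length was 84.4%.

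Promoter motifs were counted on both strands from 250 bases before to 50 after the start. The core of the TATA box (TATAAA) was in 24 members (35.8%) and in 45.2% of all genes, with 18 of 38 in the large and 5 of 27 in the small subunit. CCAAT, the core of the site of the Hap complex that drives respiratory genes in yeast, was in 28 members (41.8%) and in 43.3% of all genes. TTACCCG, read by Reb1, was in 10 members (14.9%) and in 7.08% of all genes. The motif of Abf1, which like Reb1 keeps promoters free of nucleosomes, was in 13 members (19.4%) and in 8.95%. Either of these motifs was in 23 members (34.3%) against 15.8% of all genes, and no member had both.

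Of the genes named above, MRPS12, MRPL3, MRPL9, MRPL10, MRPL19 and MRP8 were among those with TTACCCG, and MRP51, RSM19, MRPS9 and MRPL4 among those with the Abf1 motif. The Rap1 motif was in no member and in 0.27% of all genes, among them 3 of 137 cytosolic ribosomal protein genes, a share so low that this form of the motif says little. The run AATTTTT was in 14 members (20.9%) and in 29.9% of all genes. These are matches of letters in a window of fixed length and say nothing of binding.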

How the data were processed

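H4K12ac ChIP-seq reads were mapped by the authors to sacCer3 with Bowtie2 after adapter trimming with cutadapt, peaks were called with MACS2 on the H4K12ac libraries alone, and the peaks of all libraries were merged with bedtools. The deposited file gives the start and end of each merged region. Its score column is 0 throughout, so the unit used was position in bp, and the depth behind a region is unknown. Merging can only lengthen regions, and a region seen in 1 library counts as 1 seen in all.

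Starts were counted from 1. Genes came from the RefSeq annotation of R64, and no region passed the end of its chromosome. The start and end of a gene were those of its coding sequence, so the start of transcription lies further upstream. The share at similar length is the mean, over members, of the share among other genes within 10% of the member's length (72 to 701 genes each). Named genes were the 5 with the lowest covered share, members sharing a region, those in the longest region or furthest from genes of similar length, and MRP8. Others were named at the ends of a range or for a single feature after their values were seen. The members, lists and measures were chosen with earlier results of these data known. Scripts in Python 3.11.15 with pandas 2.3.3 were tested on simulated intervals.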

Additional observations from a re-analysis of the deposited data

How the results depend on the processing

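Of 76 alternative values, 5 lay outside the 95% binomial limits of the value reported. These limits treat the 67 genes as independent draws, though the genes are the whole set found by the rule. They hold no spread between libraries and serve only as a yardstick. The tally says little about stability, and 24 of the values are medians held at 100% or 0 by the ceiling. The limits of the difference in whole coverage (-0.46 to 13.6 points) are wide, although they take the share at similar length as fixed. All 67 members kept a region at the start with windows of 0 to 500 bp and with the start moved 50 bp upstream. Without the longest 5% of regions, 76.1% of members had a region at the start, 73.1% at the end, and 70.1% were wholly covered, because 16 members (23.9%, against 14.3% of all genes) lie in the 98 regions removed. With those genes left out as well, these shares were 100, 96.1 and 92.2%. With the whole end window required inside regions, 86.6% of members passed. With 200 bp added on both sides of each gene, 77.6% were wholly covered, 2.08 points above similar length.

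The 8.64-point difference in whole coverage ranged from 0.37 to 9.52 points over the alternatives. It was 4.75 points against genes over 30 kb from chromosome ends with a unique start window, 5.44 against genes with a symbol of their own, 0.99 with a region at the start required, and 0.37 with all of these together. This result and its alternatives were added after seeing the data. No paired analysis was possible because 1 merged file stands for every library, so none could be left out. A stricter peak threshold was not run, since the list has no score.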
